A study of Mus musculus with 11 samples.

Results

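Ligated carotid arteries of mice lacking Nrf3 were compared with ligated carotid arteries of control mice over all genes of a count table. Levels and changes come from 5 of the 11 libraries of the series, chosen by their labels: 2 from Nrf3 knockout animals (Nrf3-/-) and 3 from controls, which the labels call flox mice. Both groups had the carotid artery ligated and the tissue was taken on day 7 after the injury. The other 6 libraries, 3 knockout and 3 control, come from femoral arteries injured with a wire and entered the same fit, where they share the estimate of spread behind each carotid p-value. Polyadenylated RNA was sequenced as paired reads on an Illumina instrument. The Cre driver, the part of the gene removed, the strain, sex and age of the animals, and whether a library holds 1 animal or a pool are not given in the sources used here. Nothing says that replicates came from separate animals, so p-values measure the spread between these samples, which may be technical. The second knockout library is number 2 in its title and number 3 in its description, and is called replicate 2.

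Nrf3, encoded by Nfe2l3, is a transcription factor of the cap'n'collar (CNC) family, whose members bind antioxidant response elements in DNA together with small Maf proteins. It is held in the membrane of the endoplasmic reticulum and released by proteolysis, and in human cancer cells it has been linked to proteasome assembly and to the mevalonate pathway of cholesterol synthesis. Ligating the carotid artery stops its flow; smooth muscle cells of the wall then lose contractile genes, divide and build a neointima, while leukocytes enter and the adventitia remodels. Trim5 belongs to the tripartite motif proteins, and its relatives in primates restrict retroviruses.

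The knockout libraries held 47986275 and 49671909 counts, both below the control libraries at 51067573, 54384860 and 54818855. Levels are CPM, counts scaled to a common library size, after scaling by the trimmed mean of M-values. Smooth muscle markers were present in every library: Acta2, smooth muscle actin, stood at 2863 and 4393 CPM in the knockouts and at 3915, 6037 and 5355 CPM in the controls. On the first principal component of the 5 libraries, with 38.39% of the variance, the knockouts lay at -67.99 and -52.52 and the controls at 22.93, 48.61 and 48.97. Single libraries also held high levels of markers of other tissues. Knockout replicate 1 held 37.6 CPM of the noradrenaline enzyme Dbh and 14.1 CPM of the thymocyte gene Rag1, against 0 and 2.62 CPM in knockout replicate 2, and up to 3.21 and 3.64 CPM in the controls. Knockout replicate 2 held 37.1 CPM of Ccl21a, a chemokine of lymphatic vessels and lymph nodes, 13.96 CPM of the keratin Krt5 and 203.9 CPM of the brown fat gene Ucp1. Knockout replicate 1 had 1.07, 0.124 and 14.4 CPM of these genes, and the highest control values were 1.49, 0.233 and 35.3 CPM. Control replicate 2 had the most myelin RNA, with Mbp at 336.6 CPM. The source of this RNA, and its part in the results below, was not tested.

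The targeted gene was lower in both knockout libraries. Nfe2l3 (NCBI gene 18025; plus strand of chromosome 6 at 51432670 to 51458768 in GRCm38) was counted 9 and 8 times in the knockouts, against 57, 75 and 85 in the controls. In CPM these are 0.186 and 0.157 in the knockouts and 1.11, 1.42 and 1.55 in the controls. The groups did not overlap, and transcripts of the gene remained countable in both knockouts. The log2 change of -2.97 ± 0.86 (SE) missed the threshold of 0.05 in the edgeR quasi-likelihood fit (Benjamini-Hochberg adjusted p over all genes 0.142) and passed it in DESeq2 (adjusted p 0.00312).

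Trim5 fell in the knockouts, and its neighbours on chromosome 7 moved in both directions. Trim5 (NCBI gene 667823; chromosome 7, 104263386 to 104288415, minus strand, GRCm38) stood at 0.330 and 1.37 CPM in the knockouts, against 7.80, 8.25 and 7.65 CPM in the controls. Both knockouts were well below the narrow control range, and replicate 2 was the higher of the pair. The log2 change was -3.21 ± 0.46 (edgeR adjusted p 0.0119), and it stayed called when any 1 of the 11 libraries was left out (adjusted p at most 0.0380). With the carotid libraries fitted alone the change was the same size and did not pass (edgeR adjusted p 0.143).

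Trim12a, a close relative of Trim5 (chromosome 7, 104299893 to 104315850), had 0.0412 and 2.58 CPM in the knockouts and 17.3, 19.4 and 14.1 CPM in the controls. Its knockout values come from 2 counts in replicate 1 and 132 counts in replicate 2, the library that also held 54 counts of Xist, against 5 in replicate 1 and at most 2 in a control. Whether that library mixes RNA of more than 1 animal was not tested. Its log2 change of -3.68 ± 1.02 did not pass (edgeR adjusted p 0.125). Trim34a fell to 3.87 and 4.03 CPM in the knockouts, against 15.3, 14.2 and 11.1 CPM in the controls, a log2 change of -1.77 ± 0.26 (edgeR adjusted p 0.0146). Trim34b rose, with 4.70 and 3.50 CPM in the knockouts and 0.116, 0.0568 and 0.255 CPM in the controls (4.81 ± 0.57, edgeR adjusted p 0.00522). Trim12c also rose, to 79.0 and 59.8 CPM in the knockouts, against 41.4, 38.8 and 30.8 CPM in the controls (0.91 ± 0.17, edgeR adjusted p 0.0329). None of these called genes overlapped between the groups. Reads of such close paralogs may be split differently between them, so each value is uncertain; the sum of Trim5, Trim12a and Trim12c was 79.4 and 63.8 CPM in the knockouts and 66.5, 66.4 and 52.5 CPM in the controls. Of 43 genes tested in the TRIM list, 2 rose and 2 fell, against 0.661% and 0.262% of all genes tested. The median log2 change of the list was 0.03. Of its 4 calls, 2 and 3 remained without knockout replicate 1 and 2. Those left without control replicate 1, 2 and 3 were 4, 3 and 3. Without a femoral library 3 or 4 remained.

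**Figure D1:**
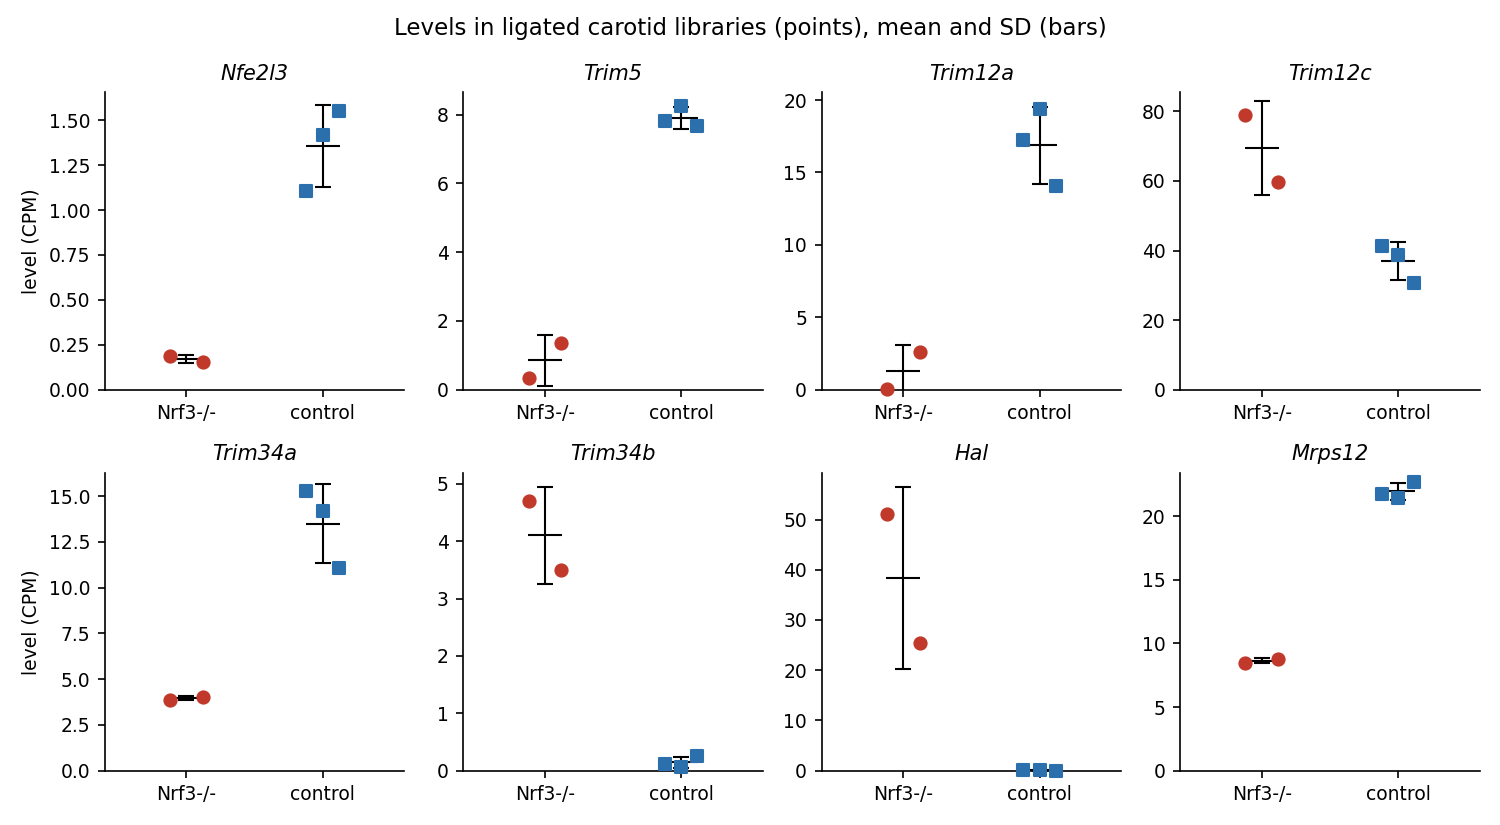
Level (CPM, linear axis from 0) of Nfe2l3, of 5 chromosome 7 TRIM genes, of Hal and of Mrps12 in each ligated carotid library; red circles are the 2 Nrf3-/- libraries, blue squares the 3 controls, and bars the mean and SD. The 2 groups do not overlap for any of the 8 genes, and Trim12a and Trim5 are higher in the second knockout library than in the first.

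Of 21343 genes tested, edgeR called 197 (0.923%) at the adjusted threshold of 0.05. In the knockout, 141 rose (0.661%) and 56 fell (0.262%), 126 and 23 of them by at least 2-fold. All 197 had knockout libraries on one side of all controls, a pattern that 3499 genes showed upwards (16.4%) and 3201 downwards (15%) among all genes tested. At an unadjusted p under 0.05 there were 3095 genes. Of the rises 92 were protein-coding genes, 16 V segments, 8 constant regions and 20 pseudogenes, and of the falls 53 were protein-coding genes. Leaving out a library left between 60 and 233 calls: 74 and 125 without knockout replicate 1 and 2, and 60 without control replicate 3. The carotid libraries fitted alone gave 26 calls, 22 of them among the 197, and DESeq2 990, which included all 197; 34 of the 197, 27 rises and 7 falls, stayed called in every omission.

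**Figure D2:**
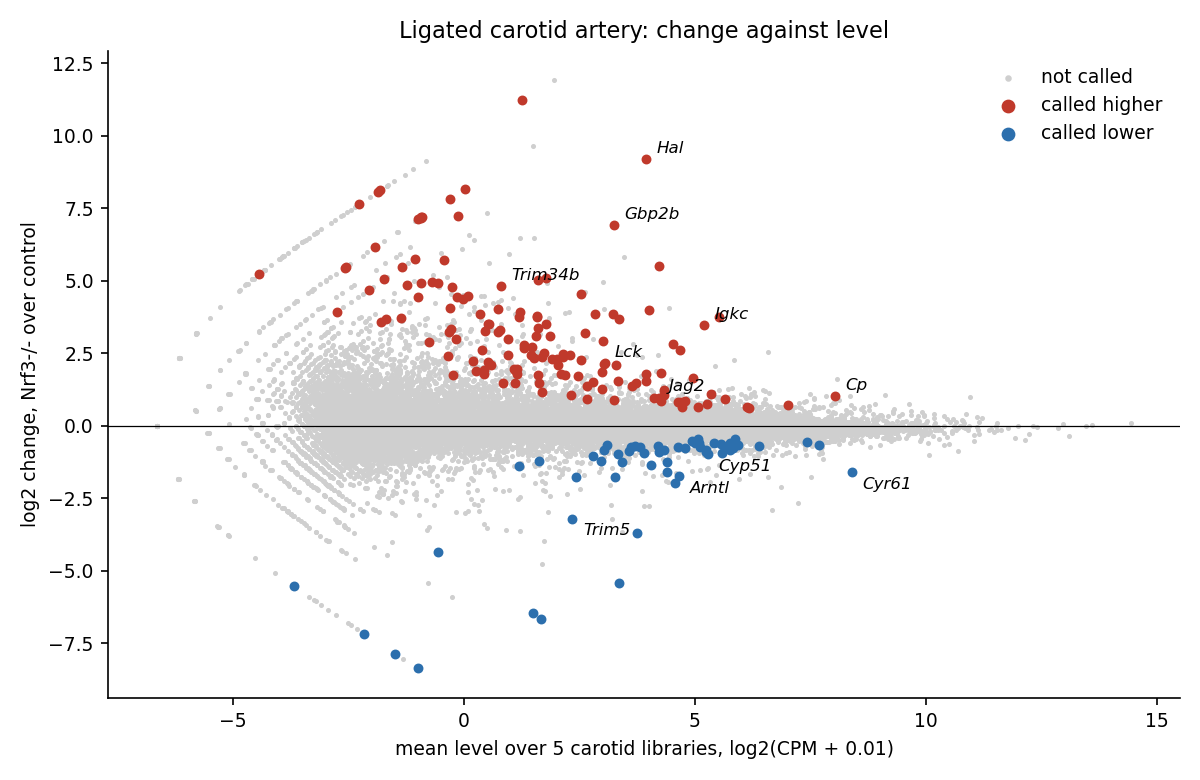
Log2 change in the ligated carotid artery (Nrf3-/- over control, vertical axis) against the mean level over the 5 libraries (log2 of CPM + 0.01, horizontal axis) for the 21343 genes tested. The 141 genes called higher (red) reach down to low levels, while most of the 56 called lower (blue) lie at moderate to high levels with small changes.

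The largest rises among named genes of at least 5 CPM were of enzymes, transporters and interferon-inducible genes. Hal, histidine ammonia-lyase, had 51.1 and 25.5 CPM in the knockouts, against 0.136, 0.0378 and 0.0182 CPM in the controls, which is 7, 2 and 1 counts. It was close to absent in every control, and its fitted log2 change was 9.19 ± 0.73 (edgeR adjusted p 0.000706). Gbp2b, an interferon-inducible guanylate-binding protein, had 15.3 and 31.2 CPM in the knockouts, against 0.214, 0.284 and 0.0729 CPM in the controls (6.93 ± 1.24, edgeR adjusted p 0.0313). Pydc3, a pyrin domain gene, had 9.27 and 7.07 CPM in the knockouts and 0.214, 0.435 and 0.0729 CPM in the controls (5.08 ± 0.68, edgeR adjusted p 0.00996). Neither gene overlapped between the groups, and both have close relatives in the genome that can share reads. Slc22a3, a transporter of organic cations and monoamines, stood at 30.0 and 43.6 CPM in the knockouts and 4.25, 1.87 and 0.911 CPM in the controls (3.98 ± 0.52, edgeR adjusted p 0.00832). Both knockouts were far above the highest control.

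Further large rises were those of Gdpd3, a lysophospholipase (3.86 ± 0.46), Ubd, the ubiquitin-like modifier FAT10 (3.79 ± 0.66), and Fgf23, the phosphate hormone of bone (3.75 ± 0.66). Fgf23 differed between the knockouts, with 10.4 and 3.02 CPM, against 0.291, 0.719 and 0.474 CPM in the controls. Of the 10 largest rises, 5 and 7 remained called without knockout replicate 1 and 2, 6, 6 and 5 without control replicate 1, 2 and 3, and 8 to 10 without a femoral library; Hal, Pydc3, Slc22a3 and Gdpd3 were among those that stayed called throughout.

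Among abundant genes, ceruloplasmin (Cp), a copper-carrying ferroxidase, rose to 399.0 and 354.2 CPM in the knockouts, against 180.3, 221.4 and 153.8 CPM in the controls (1.02 ± 0.19, edgeR adjusted p 0.0334). Xdh, which makes uric acid, rose by 0.71 ± 0.13, the microtubule-binding Mtus1 by 0.61 ± 0.11 and the glyoxalase Glo1 by 0.65 ± 0.11 on the log2 scale (edgeR adjusted p 0.0335, 0.0362 and 0.0243). With Trim12c and Ifit2 these were the 6 most abundant named rises; none remained called without knockout replicate 1 or control replicate 3, 2 without knockout replicate 2, 2 and 3 without control replicate 1 and 2, and 2 to 6 without a femoral library.

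The largest named falls after Trim5 were of an RNA gene, the clock, Wnt signalling and cell division. Bc1, a small cytoplasmic RNA, had 9.19 and 7.81 CPM in the knockouts, against 24.5, 53.2 and 23.4 CPM in the controls (-1.99 ± 0.38, edgeR adjusted p 0.0391). Cyr61, a matricellular protein (CCN1) and known target of the YAP coactivator, fell to 124.8 and 181.6 CPM in the knockouts, against 444.1, 592.7 and 349.0 CPM in the controls (-1.59 ± 0.23, edgeR adjusted p 0.0115). Both knockouts lay below every control for each of these genes. Mrps12, a protein of the small mitochondrial ribosome subunit, had 8.49 and 8.77 CPM in the knockouts and 21.8, 21.4 and 22.7 CPM in the controls. These are nearly constant values within each group, with a log2 change of -1.35 ± 0.11 (edgeR adjusted p 0.000706). Nnt, the mitochondrial transhydrogenase that makes NADPH, a gene known to carry a deletion in some mouse strains, had 31.5 and 30.3 CPM in the knockouts and 55.3, 61.4 and 61.1 CPM in the controls (-0.94 ± 0.12, edgeR adjusted p 0.00716). As the strain of either group is not given in the sources used here, the knockout and any difference in strain background cannot be told apart for Nnt, Mrps12, Hal, Trim34b, the pseudogenes described below or any other gene.

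Of the 10 largest falls, 2 and 5 remained called without knockout replicate 1 and 2, 8, 8 and 5 without control replicate 1, 2 and 3, and 7 to 9 without a femoral library. Trim5, Mrps12 and Nnt stayed called in every omission. The abundant named falls other than Cyr61 were the tubulins Tubb6 (-0.66 ± 0.13) and Tubb4b (-0.55 ± 0.10), the RNA-binding Khsrp (-0.71 ± 0.10), Ube2s, which extends ubiquitin chains at mitotic exit (-0.66 ± 0.10), and the sialic acid synthase Nans (-0.44 ± 0.07). Tubb6 had 134.6 and 168.9 CPM in the knockouts and 249.2, 211.4 and 258.4 CPM in the controls (edgeR adjusted p 0.0401). With Cyr61, none of the 6 remained called without knockout replicate 1, 1 without knockout replicate 2, 3, 6 and 3 without control replicate 1, 2 and 3, and 4 to 6 without a femoral library.

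Among the 51 gene lists, that of T and NK cells held the most calls. Of its 25 genes tested, 12 rose and none fell, against 0.661% and 0.262% of all genes tested. The median log2 change was 2.17, against 0.004 over all genes tested. Both knockouts lay above all controls for 23 of the 25, against 16.4% of all genes tested. Cd3e, a chain of the T cell receptor complex, had 5.44 and 5.89 CPM in the knockouts and 0.776, 0.738 and 1.04 CPM in the controls (2.73 ± 0.30, edgeR adjusted p 0.00258). Themis, needed for thymocyte selection, had 3.57 and 2.80 CPM in the knockouts and 0.291, 0.227 and 0.310 CPM in the controls (3.51 ± 0.35, edgeR adjusted p 0.00152). The knockouts exceeded every control for both genes. The kinase Lck had 17.1 and 13.8 CPM in the knockouts and 4.15, 2.42 and 3.70 CPM in the controls (2.17 ± 0.30, edgeR adjusted p 0.00996). The surface receptor Cd5 rose by 2.43 ± 0.37 (edgeR adjusted p 0.0175). Genes of the CD8 coreceptor, Cd8a (3.20) and Cd8b1 (3.11), were among the calls, and Cd4 at 11.4 and 10.2 CPM in the knockouts and 3.13, 0.870 and 2.48 CPM in the controls was not (edgeR adjusted p 0.0607). Foxp3, the factor of regulatory T cells, stood at 6.92 and 6.11 CPM in the knockouts and 6.81, 5.94 and 6.74 CPM in the controls, with overlapping groups (log2 change 0.00).

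Summed over the list, T and NK cell genes took 154.3 and 161.1 CPM in the knockouts and 57.7, 33.8 and 44.8 CPM in the controls. In bulk tissue, more cells of a type and more RNA per cell cannot be told apart. Outside the list, and named after their values were seen, the T cell signalling genes Lat (2.46), Zap70 (1.95) and Cd6 (2.80), the T cell factor Bcl11b (3.10) and the chemokine receptor Cxcr3 (1.47) were also called higher. Of the 12 list calls, 3 and 4 remained without knockout replicate 1 and 2, 8, 7 and 4 without control replicate 1, 2 and 3, and 9 to 12 without a femoral library; the list median stayed between 1.86 and 2.43. Markers of lymph node stroma and thymus moved with these genes: their median was 2.26 over 11 genes with none called. Of the 11, 6 had both knockouts above all controls, against 16.4% of all genes tested. The sum of the list was 58.6 and 75.4 CPM in the knockouts, against 28.1, 24.97 and 23.7 CPM in the controls. None of its 13 measured members was at 0 in all 5 libraries. Their part in the lymphocyte values was not tested.

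Several B cell and plasma cell genes rose as well, and more immunoglobulin segments had a count. Of 14 B and plasma cell genes tested, 5 rose and none fell, against 0.661% and 0.262% of all genes tested, and the median was 2.65. Both knockouts lay above all controls for 12 of the 14, against 16.4% of all genes tested. Igkc, the kappa light chain constant region, had 75.9 and 84.8 CPM in the knockouts and 8.81, 9.01 and 3.90 CPM in the controls (3.47 ± 0.44, edgeR adjusted p 0.00716). Ighm, the constant region of IgM, had 40.9 and 64.4 CPM in the knockouts and 15.6, 14.8 and 20.8 CPM in the controls (1.63 ± 0.19, edgeR adjusted p 0.00522). For both, the lower knockout lay above the highest control. Jchain, which joins IgA and IgM units, had 27.7 and 18.4 CPM in the knockouts and 2.29, 1.91 and 1.15 CPM in the controls (3.69 ± 0.52, edgeR adjusted p 0.0115). Mzb1, a chaperone of antibody secretion, rose by 3.30 ± 0.55 (edgeR adjusted p 0.0235). Outside the list, the B cell coactivator Pou2af1 rose by 3.74 ± 0.71 (edgeR adjusted p 0.0371). The Pou2af1 call was lost in 8 of the 11 omissions, among them that of each carotid library (edgeR adjusted p 0.0538 to 0.138). Xbp1, which plasma cells share with secretory cells of the wall, was at 193.2 and 191.3 CPM in the knockouts and 233.5, 214.4 and 204.3 CPM in the controls (edgeR adjusted p 0.509).

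Over all immunoglobulin V segments and constant regions, the sum was 400.9 and 446.9 CPM in the knockouts and 54.5, 56.5 and 36.8 CPM in the controls. Of 225 V segments in the table, 143 and 159 had a count in the knockouts, and 54, 44 and 49 in the controls. Igha, the IgA constant region, was uneven between the knockouts, with 157.6 and 49.4 CPM, against 13.1, 3.80 and 5.995 CPM in the controls (3.76 ± 0.69, edgeR adjusted p 0.0329). Segments of 1 family share sequence, so the split between single segments is uncertain. T cell receptor segments and constant regions summed to 31.9 and 28.9 CPM in the knockouts and 7.55, 3.94 and 7.42 CPM in the controls. Of 140 immunoglobulin segments and constant regions tested, 19 were called, each higher in the knockout, against 0.661% of all genes tested. For the T cell receptor, 5 segments or constant regions were called, each higher. Segments that share reads are not separate observations. Of the 5 B and plasma cell calls, 4 and 3 remained without knockout replicate 1 and 2, 3, 3 and 2 without control replicate 1, 2 and 3, and 4 or 5 without a femoral library; without knockout replicate 2 the median was 1.69.

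**Figure D3:**
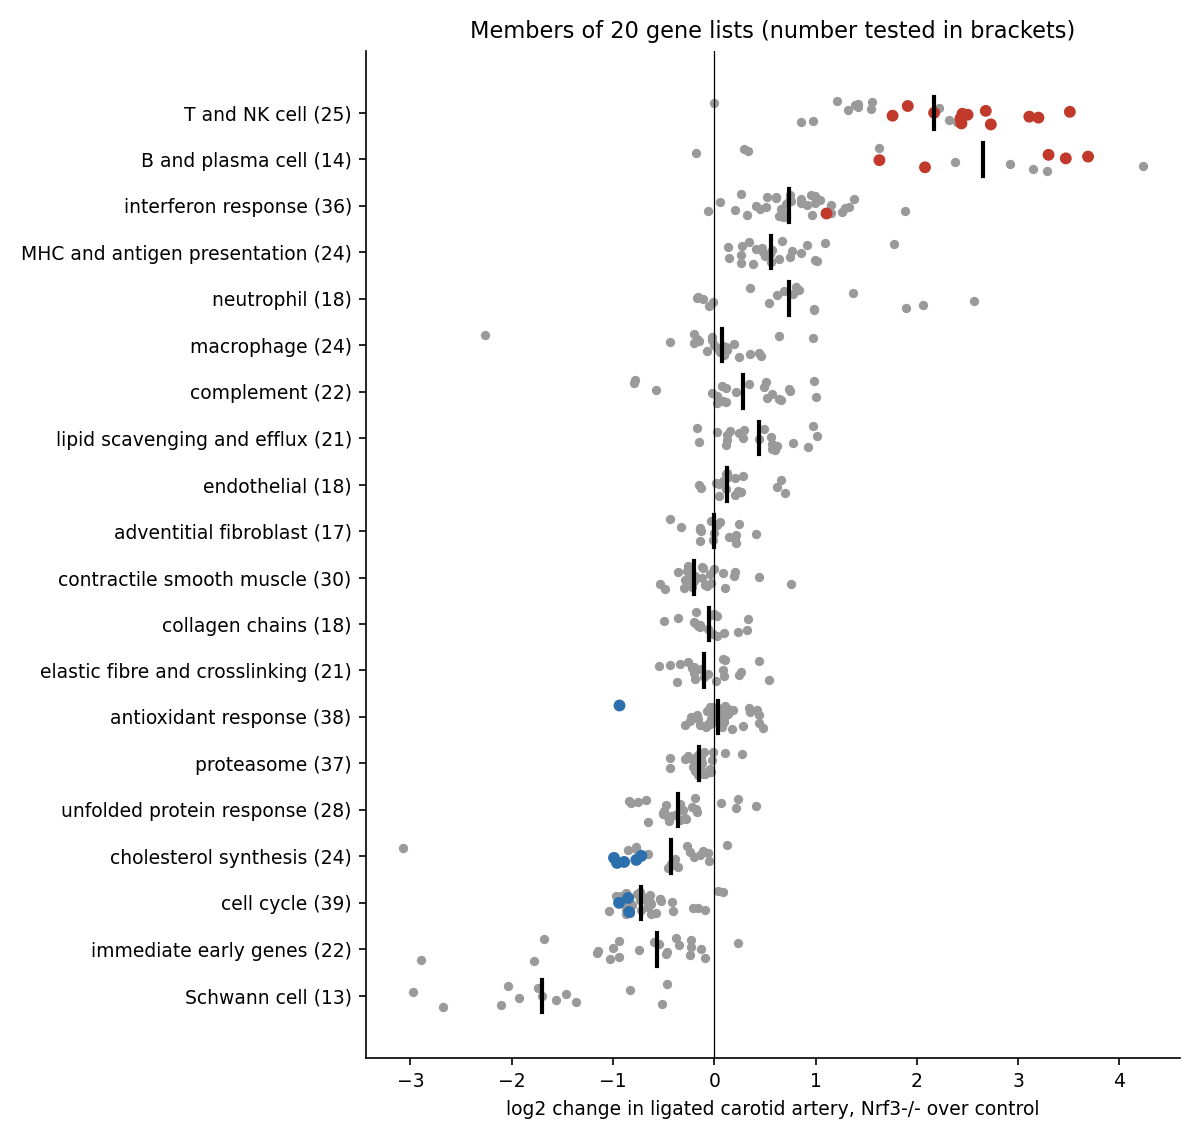
Log2 change (Nrf3-/- over control, ligated carotid) of each tested member of 20 gene lists; a dot is a gene, red and blue dots were called higher and lower, grey ones were not called, and the black bar is the median of the list. T and NK cell (median 2.17) and B and plasma cell genes (2.65) lie to the right, cell cycle (-0.72) and cholesterol synthesis genes (-0.43) to the left, and contractile and collagen genes near 0.

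Interferon-inducible and antigen presentation genes mostly had positive changes with 1 call. Of 36 interferon response genes 35 had positive changes, with a median of 0.74, and 25 had both knockouts above all controls. Among all genes tested 16.4% had both knockouts above all controls and 0.661% were called higher. Ifit2, an antiviral RNA-binding protein, was the 1 member called, with 55.9 and 64.5 CPM in the knockouts and 30.7, 28.5 and 24.98 CPM in the controls (1.10 ± 0.21, edgeR adjusted p 0.0370). It missed the threshold without any 1 of the 5 carotid libraries (edgeR adjusted p 0.0626 to 0.161), and without femoral knockout replicate 2 (0.0552) or femoral control replicate 1 (0.0606). Gbp5, a guanylate-binding protein, had 42.3 and 26.5 CPM in the knockouts and 12.6, 16.2 and 10.9 CPM in the controls (edgeR adjusted p 0.113). All 24 genes of the major histocompatibility complex and antigen presentation had positive changes, with a median of 0.56, no call and 13 without overlap; among them H2-Q6 had 53.0 and 42.1 CPM in the knockouts and 26.0, 26.4 and 18.6 CPM in the controls (edgeR adjusted p 0.0617). The interferon median was 0.39 and the antigen presentation median 0.21 without knockout replicate 1, and 1.04 and 0.79 without knockout replicate 2.

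Of 41 cytokine and chemokine genes, 2 were called, both higher, against 0.661% of all genes tested. The median of the list was 0.44. Ccl5, a T cell chemokine, had 8.12 and 11.9 CPM in the knockouts and 3.88, 4.69 and 2.95 CPM in the controls (1.38 ± 0.26, edgeR adjusted p 0.0371). Tnfsf13b, the B cell survival factor BAFF, had 13.5 and 12.9 CPM in the knockouts and 7.88, 6.32 and 6.98 CPM in the controls (0.90 ± 0.14, edgeR adjusted p 0.0177). Both genes were higher in each knockout than in any control. Neither remained called without knockout replicate 1, knockout replicate 2 or control replicate 3; without control replicate 1 only Tnfsf13b did. The cytokine median was 0.07 without knockout replicate 1 and 0.80 without control replicate 1. Complement genes had a median of 0.28 over 22 genes (0.09 without knockout replicate 1 and 0.44 without knockout replicate 2) and none was called; C3, the central component, had 3369 and 2304 CPM in the knockouts and 1278, 1241 and 1742 CPM in the controls (edgeR adjusted p 0.0528).

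Myeloid lists held no call. Macrophage genes had a median of 0.08 over 24 genes, and Adgre1, which encodes F4/80, stood at 214.5 and 142.8 CPM in the knockouts and 172.5, 133.3 and 149.2 CPM in the controls. Neutrophil genes had a median of 0.74 over 18 genes; Lcn2, lipocalin of neutrophil granules and injured epithelium, had 181.7 and 202.7 CPM in the knockouts and 42.3, 42.6 and 13.3 CPM in the controls (edgeR adjusted p 0.0617). Dendritic cell genes had a median of 0.26 over 10 genes, with Cd209a at 2.21 and 0.842 CPM in the knockouts and 24.0, 7.83 and 10.9 CPM in the controls (edgeR adjusted p 0.0617). The Lcn2 and Cd209a groups did not overlap, and neither difference passed the threshold. In omissions the macrophage median ran from -0.17 (without knockout replicate 1) to 0.33 (without knockout replicate 2), the neutrophil median from 0.53 (without control replicate 3) to 1.20 and the dendritic cell median from 0.22 (without knockout replicate 2) to 0.42, the upper ends of both without control replicate 1.

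Cell division genes mostly had lower levels in the knockout. Of 39 cell cycle genes tested, 3 fell, against 0.262% of all genes tested, and none rose. Changes were negative for 37, and the median was -0.72. Both knockouts lay below all controls for 25, against 15% of all genes tested. Ccna2, cyclin A2, had 22.7 and 28.3 CPM in the knockouts and 55.3, 42.3 and 39.6 CPM in the controls (-0.84 ± 0.16, edgeR adjusted p 0.0340). Birc5, survivin of the chromosomal passenger complex, had 9.03 and 10.3 CPM in the knockouts and 22.8, 14.5 and 18.3 CPM in the controls (-0.94 ± 0.17, edgeR adjusted p 0.0340). E2f1, a factor of S phase entry, had 14.3 and 12.8 CPM in the knockouts and 25.5, 19.2 and 28.5 CPM in the controls (-0.85 ± 0.16, edgeR adjusted p 0.0377). In each, control replicate 2 or 3 came nearest to the knockouts without reaching them. Top2a, a topoisomerase of dividing cells, had 54.3 and 57.2 CPM in the knockouts and 131.5, 77.7 and 97.2 CPM in the controls (edgeR adjusted p 0.0523). Mki67, the Ki-67 antigen, had 55.5 and 67.7 CPM in the knockouts and 142.2, 66.3 and 76.3 CPM in the controls, where 1 control fell between the knockouts.

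Outside the list the mitotic kinase gene Pbk fell to 5.56 and 6.25 CPM in the knockouts, against 15.5, 10.7 and 15.6 CPM in the controls (-1.24 ± 0.17, edgeR adjusted p 0.0105). Prr11 fell by 1.21 ± 0.24 on the log2 scale (edgeR adjusted p 0.0417). Kifc1, Kif22, Cdca8, Ccnf, Stmn1 and H2afx, genes of the spindle, the kinetochore and chromatin named after their values were seen, were also called lower, with log2 changes of -0.87, -0.75, -0.72, -0.83, -0.78 and -0.53. Of the 3 list calls, all remained without control replicate 2, where 13 list members passed, and none without another carotid library; 0 to 3 remained without a femoral library. The median stayed between -0.85 and -0.57. The femoral comparison had a median of -0.12 for the same genes with no call in either direction. The difference between the arteries was called for none of them. For this difference 17 of the 39 passed an unadjusted p of 0.05, as did 1815 of all 21343 genes tested.

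Several enzymes of cholesterol synthesis fell in the knockout. Of 24 genes tested, 5 fell, against 0.262% of all genes tested, and none rose. Changes were negative for 23, and the median was -0.43. Both knockouts lay below all controls for 16, against 15% of all genes tested. Fdps, farnesyl diphosphate synthase, had 26.3 and 23.9 CPM in the knockouts and 45.5, 46.2 and 48.1 CPM in the controls (-0.89 ± 0.11, edgeR adjusted p 0.00757). Cyp51, lanosterol demethylase, had 26.8 and 22.2 CPM in the knockouts and 56.9, 44.2 and 45.0 CPM in the controls (-0.99 ± 0.13, edgeR adjusted p 0.00996). For each, the highest knockout lay far below the lowest control. Sqle, squalene epoxidase, had 20.03 and 18.6 CPM in the knockouts and 29.4, 33.3 and 36.0 CPM in the controls (-0.77 ± 0.12, edgeR adjusted p 0.0177). Msmo1, a sterol methyl oxidase, fell by 0.72 ± 0.12 and Idi1, which isomerises isopentenyl diphosphate, by 0.96 ± 0.18 on the log2 scale (edgeR adjusted p 0.0251 and 0.0329).

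Of the 5 calls, 2 and 1 remained without knockout replicate 1 and 2, 3, 5 and 2 without control replicate 1, 2 and 3, and 4 or 5 without a femoral library; Fdps stayed called throughout. The femoral median was -0.14 with no call, and the difference between the arteries was called for none of the 24. Genes of lipid scavenging and cholesterol efflux had a median of 0.44 over 21 genes with no call (0.24 without control replicate 3 and 0.81 without control replicate 1); the fatty acid binder Fabp5 had 129.5 and 97.9 CPM in the knockouts and 82.1, 49.7 and 37.6 CPM in the controls (edgeR adjusted p 0.137).

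Promoters of the called cholesterol genes are shown, of which 3 of the 5 were found in the RefSeq promoter table (GRCm38.p6). Those of called cell cycle genes were searched too and are described below without being shown. Each line gives the 250 bases before the start of the gene, read 5′ to 3′ on the strand of the gene. Capitals mark CCAAT, or ATTGG where it lies on the other strand. Idi1 lies at chr13:8885356-8885605 (plus strand), Cyp51 at chr5:4104698-4104947 (minus strand) and Msmo1 at chr8:64733579-64733828 (minus strand).
Idi1: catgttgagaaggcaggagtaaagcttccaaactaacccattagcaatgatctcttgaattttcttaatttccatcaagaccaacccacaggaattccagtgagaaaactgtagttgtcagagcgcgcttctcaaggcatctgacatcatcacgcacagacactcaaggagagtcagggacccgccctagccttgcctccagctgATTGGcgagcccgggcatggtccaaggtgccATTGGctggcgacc
Cyp51: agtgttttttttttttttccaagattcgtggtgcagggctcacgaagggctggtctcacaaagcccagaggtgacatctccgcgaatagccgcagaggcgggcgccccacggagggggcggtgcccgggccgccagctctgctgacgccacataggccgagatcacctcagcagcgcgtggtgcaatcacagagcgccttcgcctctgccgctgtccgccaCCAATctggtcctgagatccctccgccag
Msmo1: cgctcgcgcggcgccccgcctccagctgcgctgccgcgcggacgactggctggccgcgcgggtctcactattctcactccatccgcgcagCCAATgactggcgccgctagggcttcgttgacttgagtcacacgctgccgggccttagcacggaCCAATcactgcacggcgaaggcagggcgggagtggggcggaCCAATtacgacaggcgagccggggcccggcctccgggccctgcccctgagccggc
The Idi1 window holds the box 45 and 14 bases before the start, the Cyp51 window 29 bases before it, and the Msmo1 window at 160, 96 and 55 bases. CCAAT is the known binding sequence of the factor NF-Y. Searched on both strands of 300-base windows (250 before and 50 after the start), CCAAT was found in 16 of 19 windows of cholesterol synthesis genes (84.2%), in 73.5% of the windows of cell cycle genes, in 68.4% of 38 windows of genes called lower, in 38.4% of 86 windows of genes called higher and in 36.9% of 17877 windows of all tested genes. The letters TTTGAA, found in cell cycle promoters, were in 35.3% of cell cycle windows, in 31.6% of windows called lower and in 13.5% of all. For the called cell cycle genes Birc5 and E2f1, only 1 window each was in the promoter table. Its 250 bases before the annotated start held neither CCAAT nor TTTGAA on either strand. Whether that start is the main start of either gene was not tested, so no statement is made on their promoters. The antioxidant response element, searched as TGACNNNGC, was in 21.1% of windows called lower, 8.14% of windows called higher and 13.9% of all, and in 26.5% of cell cycle and 23.1% of antioxidant response windows. The sterol response element, searched in 1 form of its consensus, was in 0 of the 19 cholesterol synthesis windows, 0 of the 38 called lower and 0.196% of all. The motifs other than TGACNNNGC were chosen after the data were seen, and such matches are descriptions of these windows only.

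Of 19 clock genes tested, 2 rose and 1 fell, against 0.661% and 0.262% of all genes tested, and the median was 0.37. Per3, a period gene, had 26.3 and 27.2 CPM in the knockouts and 6.21, 11.6 and 5.56 CPM in the controls (1.78 ± 0.34, edgeR adjusted p 0.0371). Bhlhe41, a repressor of the clock, had 33.8 and 24.4 CPM in the knockouts and 14.3, 15.5 and 12.3 CPM in the controls (1.05 ± 0.19, edgeR adjusted p 0.0332). Arntl, which encodes the activator BMAL1, fell to 9.23 and 11.9 CPM in the knockouts, against 38.4, 29.0 and 37.7 CPM in the controls (-1.73 ± 0.25, edgeR adjusted p 0.0146). The 3 genes did not overlap between groups. Control replicate 2 lay nearest to the knockouts for Dbp, an output gene of the clock. Dbp had 101.8 and 57.9 CPM in the knockouts and 6.99, 42.3 and 7.82 CPM in the controls (edgeR adjusted p 0.245). For Nr1d1 control replicate 2 lay between the knockouts, so the groups overlapped. Nr1d1 had 141.4 and 102.3 CPM in the knockouts and 28.0, 132.4 and 58.7 CPM in the controls (edgeR adjusted p 0.545). Npas2, a partner of BMAL1, had 7.36 and 8.24 CPM in the knockouts and 25.9, 26.0 and 35.7 CPM in the controls (edgeR adjusted p 0.150). The hour at which tissue was taken is not given in the sources used here. Of the 3 calls none remained without knockout replicate 1 or control replicate 3, 2 without knockout replicate 2, 1 and 2 without control replicate 1 and 2, and 1 to 3 without a femoral library.

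In the Wnt pathway 2 genes rose and 2 fell of 30 tested, against 0.661% and 0.262% of all genes tested. Wnt2, a ligand, fell to 9.48 and 9.44 CPM in the knockouts, against 17.4, 32.4 and 36.1 CPM in the controls (-1.60 ± 0.29, edgeR adjusted p 0.0329). Fzd8, a receptor, fell to 11.9 and 10.9 CPM in the knockouts, against 26.5, 27.9 and 27.3 CPM in the controls (-1.26 ± 0.23, edgeR adjusted p 0.0333). Both knockouts were close to each other and below all controls. Tcf7, a nuclear partner of beta-catenin that T cells also express, rose to 21.7 and 14.6 CPM in the knockouts, against 3.26, 3.31 and 6.195 CPM in the controls (2.09 ± 0.35, edgeR adjusted p 0.0247), and the ligand Rspo1 rose by 1.48 ± 0.26 (edgeR adjusted p 0.0308). Of these 4 calls, none remained without knockout replicate 1 or control replicate 2, 2 without knockout replicate 2, 1 without control replicate 1 or control replicate 3, and 2 to 4 without a femoral library.

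Among 32 growth factors and receptors, Hgf, hepatocyte growth factor, was called, with 24.0 and 28.3 CPM in the knockouts and 16.5, 14.2 and 12.6 CPM in the controls (0.86 ± 0.14, edgeR adjusted p 0.0235). It was not called without knockout replicate 1 (edgeR adjusted p 0.0654) or 2 (0.132), or control replicate 2 (0.0545) or 3 (0.0731). Among 18 Notch genes the ligand Jag2 was called. Each of these lists held 1 call, a rise, against 0.661% of all genes tested called higher. Jag2 had 25.9 and 26.7 CPM in the knockouts and 13.6, 12.1 and 14.6 CPM in the controls (0.97 ± 0.17, edgeR adjusted p 0.0254). Both knockouts lay above all controls, and the call was lost without any 1 of the 5 carotid libraries (edgeR adjusted p 0.0561 to 0.111).

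Lists of structural genes of the wall held few calls, Cyr61 among 20 matricellular proteins being the one. Over all genes tested 0.262% were called lower. No call was made among 30 contractile smooth muscle genes (median -0.20), 23 genes of modulated smooth muscle (-0.21), 18 collagen chains (-0.05), 21 elastic fibre and crosslinking genes (-0.10), 18 endothelial genes (0.13), 17 adventitial fibroblast genes (0.00) or 31 matrix proteases and inhibitors (0.07). Myh11, smooth muscle myosin, stood at 1595 and 2194 CPM in the knockouts and 1132, 2200 and 1933 CPM in the controls, and Col1a1 at 14760 and 10380 CPM in the knockouts and 12240, 12180 and 12610 CPM in the controls. Their groups overlapped. Tnc, tenascin C of injured matrix, had 309.8 and 321.5 CPM in the knockouts and 516.0, 476.0 and 597.2 CPM in the controls without passing (edgeR adjusted p 0.120). The medians moved with single libraries. Without knockout replicate 1 they were 0.02 for contractile, -0.08 for modulated smooth muscle, -0.25 for collagen, -0.15 for elastic fibre, -0.27 for fibroblast, -0.01 for protease and 0.25 for endothelial genes. Without knockout replicate 2 those for contractile, collagen, elastic fibre, fibroblast and endothelial genes were -0.46, 0.03, 0.05, 0.28 and -0.02, so no direction is given for these lists.

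**Figure D4:**
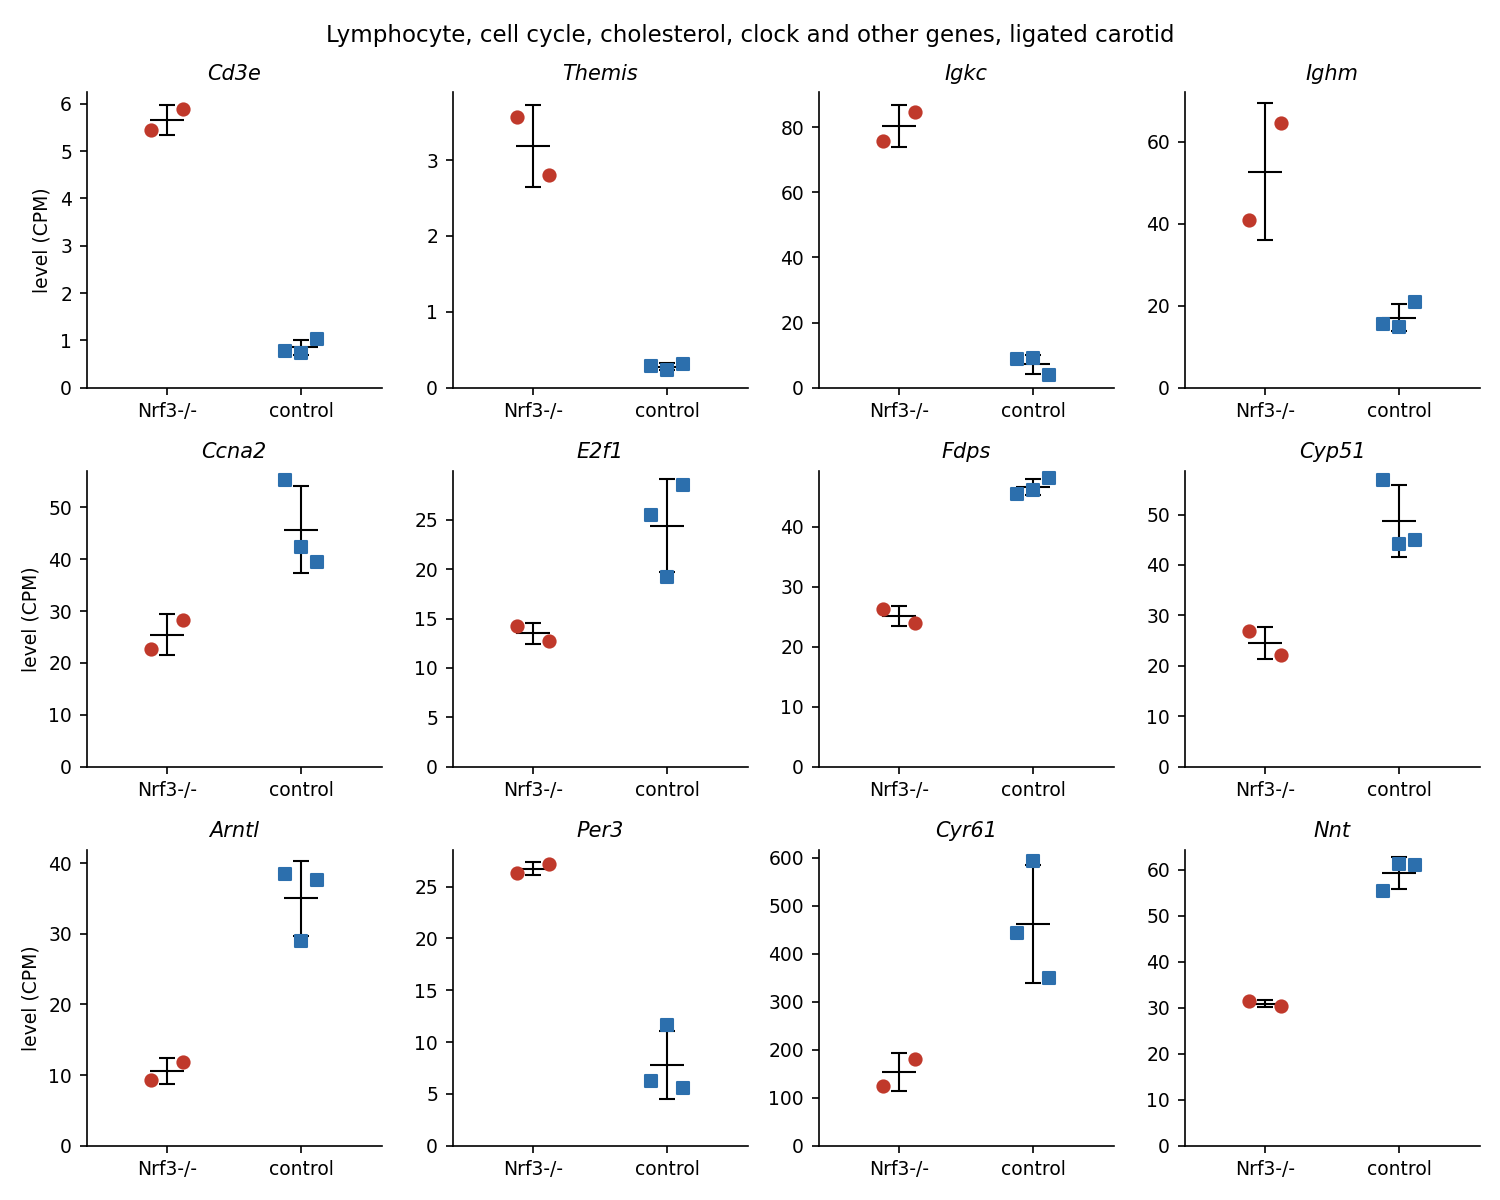
Level (CPM, linear axis from 0) of 12 genes in each ligated carotid library; red circles are the 2 Nrf3-/- libraries, blue squares the 3 controls, and bars the mean and SD. Cd3e, Themis, Igkc, Ighm and Per3 are higher in both knockouts, and Ccna2, E2f1, Fdps, Cyp51, Arntl, Cyr61 and Nnt lower, with no overlap between the groups for any of the 12.

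The antioxidant response list, which is not limited to genes that CNC factors are known to drive, held 1 call among 38 genes tested. Over all genes tested 0.923% were called. The call was Nnt, described above, and the median of the list was 0.04. Hmox1, heme oxygenase, had 180.7 and 150.3 CPM in the knockouts and 134.8, 137.6 and 83.6 CPM in the controls, and Nqo1, a quinone reductase, 9.29 and 10.6 CPM in the knockouts and 7.94, 9.71 and 8.82 CPM in the controls (edgeR adjusted p 0.433 and 0.736). The related factors Nfe2l1 (0.07) and Nfe2l2 (0.10) were not called. Proteasome genes had a median of -0.15 with no call in 37 genes, 35 of them negative. Both knockouts lay below all controls for 21, against 15% of all genes tested. The assembly factor Pomp had 82.7 and 76.5 CPM in the knockouts and 88.6, 87.1 and 84.9 CPM in the controls (edgeR adjusted p 0.750). The proteasome median was -0.11 with scaling by library totals. No call was made in the lists of NADPH oxidase (median 0.17 over 12 genes), oxidative phosphorylation (-0.10 over 45), glycolysis (-0.02 over 24) or autophagy and lysosome genes (0.14 over 25). In omissions the medians of antioxidant response (-0.03 to 0.09), NADPH oxidase (-0.05 to 0.32) and glycolysis genes (-0.18 to 0.07) took both signs, the extremes coming without control replicates 3 and 2 for antioxidant response genes, without knockout replicates 1 and 2 for NADPH oxidase and without knockout replicates 2 and 1 for glycolysis.

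Genes of the unfolded protein response and the immediate early response lay lower without a call. In the first list 24 of 28 had negative changes, and the median was -0.36. Both knockouts lay below all controls for 23 of the 28, against 15% of all genes tested. Hspa5, the main chaperone of the endoplasmic reticulum, had 902 and 1103 CPM in the knockouts and 1682, 1576 and 1451 CPM in the controls (edgeR adjusted p 0.156), and its cochaperone Dnajc3 had 197.6 and 219.5 CPM in the knockouts and 324.8, 286.1 and 280.8 CPM in the controls (0.0611). DESeq2 called 15 of the 28. Immediate early genes had a median of -0.57 over 22 genes. Control replicate 2 was the highest library for them, with Fosb at 22.6 and 19.0 CPM in the knockouts and 95.2, 334.1 and 36.4 CPM in the controls (edgeR adjusted p 0.134), and without that library the median was -0.29.

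Markers of surrounding tissue moved with single libraries. Schwann cell genes had a median of -1.70 with all 13 negative and none called; their sum was 547.5 and 286.4 CPM in the knockouts and 370.1, 1831 and 834.8 CPM in the controls. Neuronal genes had a median of 2.23, which was -0.68 without knockout replicate 1. The Schwann cell median was -3.14 without knockout replicate 1 and -0.72 without control replicate 2. Skeletal muscle genes summed to 31.6 and 822.9 CPM in the knockouts and 246.3, 67.8 and 1049 CPM in the controls, with a median of 0.01 that was -4.22 without knockout replicate 2 and 1.25 without control replicate 3. None of these lists held a call. Xist, the RNA of the inactive X chromosome, had 5 and 54 counts in the knockouts and 2, 1 and 0 in the controls, and the Y-linked Uty was present in all 5 libraries at 13.2 to 20.4 CPM.

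Pseudogenes and predicted genes were among the strongest changes. All 20 pseudogenes called were higher in the knockout. Over all genes tested 0.661% were called higher and 0.262% lower, and 71.57% of all calls were rises. The share of tested pseudogenes that was called is not given here, so no excess is stated. Rps3a2, a copy of a ribosomal protein gene, had 45.3 and 45.6 CPM in the knockouts and 0.912, 1.17 and 0.911 CPM in the controls (5.50 ± 0.51, edgeR adjusted p 0.00116). Atp6v0c-ps2, a copy of a proton pump gene, had 48.8 and 46.9 CPM in the knockouts and 8.33, 5.73 and 6.14 CPM in the controls (2.83 ± 0.16, edgeR adjusted p 8.83e-05). Levels within each group were tight and far apart. Gm7335 had 203 and 394 counts in the knockouts and 0 in each control, where 0 allows up to 3 counts. In the other direction the predicted gene Gm42031 had 0 and 5 counts in the knockouts and 327, 276 and 232 in the controls (edgeR adjusted p 0.00116). These genes were named after their values were seen, and reads can be shared with parent genes or copies. Of the 20 pseudogene calls, 15 and 16 remained without knockout replicate 1 and 2, 17, 17 and 11 without control replicate 1, 2 and 3, and 18 to 20 without a femoral library. A fit of protein-coding genes alone called 131 genes, 79 higher and 52 lower.

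By position, 23 of 1257 genes tested on chromosome 6 were called (1.83%), which holds Nfe2l3 and also the kappa and T cell receptor beta loci. Over all genes tested the share was 0.923%. On the autosomes other than 6 and 7 it ran from 0.301% on chromosome 1 to 1.64% on chromosome 12 and 1.69% on chromosome 17. Within 10 Mb of Nfe2l3 4 of 156 other genes were called (2.56%), all higher: Gimap3, Gimap7, Trbc1 and Trbc2, genes of lymphocytes. On chromosome 7 23 of 1645 were called (1.40%), and within 10 Mb of Trim5 9 of 229 (3.93%), 6 higher and 3 lower, among them Trim12c, Trim34a, Trim34b, Arntl and Ampd3.

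The wire-injured femoral artery of the same genotypes has its own libraries, but both comparisons come from 1 fit with a shared estimate of spread, so the 2 lists of calls are not independent. There 393 genes rose (1.84%) and 142 fell (0.665%) in the knockout. Of the carotid calls, 98 were called in the femoral artery in the same direction (78 rises and 20 falls), which is 49.75% of the carotid and 18.32% of the femoral calls. In all, 189 of the 197 had the same sign. The share of all genes tested with the same sign in both arteries was not counted. Hal had 14.8, 10.8 and 15.7 CPM in the femoral knockouts, against 0.284, 0.0203 and 0.0184 CPM in the femoral controls, and Mrps12 had 8.67, 8.73 and 8.56 CPM in the femoral knockouts, against 20.8, 22.8 and 19.2 CPM in the femoral controls. Both repeat the carotid order of groups without overlap. Ighm differed less, with a femoral log2 change of 0.11 (edgeR adjusted p 0.779), but the difference between arteries was not called for it.

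The carotid minus the femoral change was called for 1 gene, Jag2 (0.00469% of genes tested), at 2.09 ± 0.22 on the log2 scale (edgeR adjusted p 0.0394). In the femoral artery Jag2 had 23.6, 27.6 and 28.4 CPM in the knockouts and 56.3, 70.8 and 45.5 CPM in the controls (-1.12, edgeR adjusted p 0.00716), so it was lower in the femoral and higher in the carotid knockout. Unadjusted, 1815 genes had p under 0.05 for this difference, DESeq2 called 171 and limma-voom none. Leaving out single libraries gave between 0 and 3 calls: 0 without knockout replicate 1, control replicate 2 or control replicate 3 of the carotid artery, 3 without carotid knockout replicate 2, and 0 without any femoral knockout library or femoral control replicate 1.

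**Figure D5:**
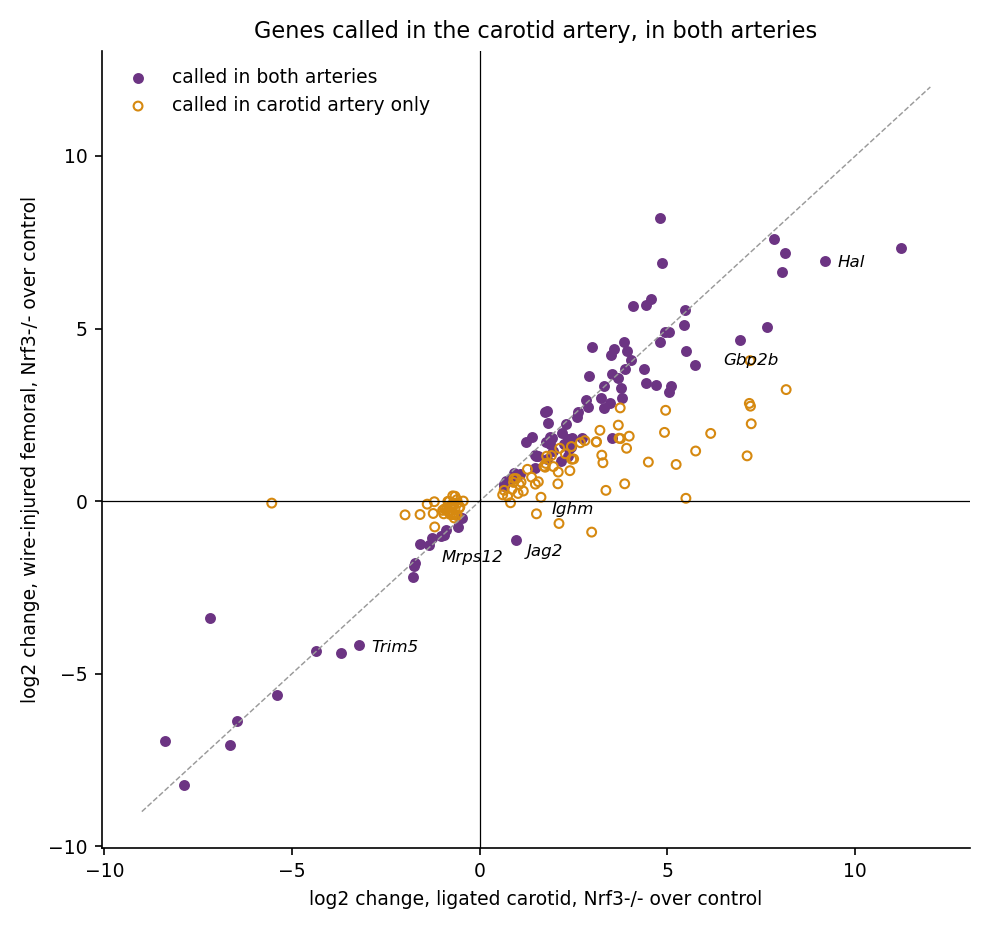
Log2 change (Nrf3-/- over control) of the 197 genes called in the ligated carotid artery, with the carotid change on the horizontal and the wire-injured femoral change on the vertical axis; filled points were called in both arteries, open ones in the carotid artery alone, and the dashed line marks equal change. Most points share the sign of the carotid change, and Jag2 is the gene called in opposite directions.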

How the data were processed

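Gene-level read counts of 11 libraries were used as deposited; the submitters' processing notes name HISAT2 and HTSeq, and edgeR, DESeq and DESeq2, with neither version nor role. The notes list mm9, while 99.8% of 39064 genes joined by NCBI identifier overlap their GRCm38 position, so coordinates are those deposited and are given as GRCm38. The strand setting of the counting is not given in the sources used here. Symbols that a spreadsheet had turned into dates, 27 in number, were restored from the gene identifier, and the deposited positions were used as other annotation.

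The main test was edgeR 4.0.16 (quasi-likelihood, R 4.3.3) on all 11 libraries with 4 group means and 7 residual degrees of freedom, after edgeR's default filter (21343 of 48897 genes) and TMM scaling. Calls had a Benjamini-Hochberg adjusted p under 0.05 over all genes tested; standard errors are the log2 change over the square root of F. Alternatives were DESeq2 1.42.0, limma-voom 3.58.1, other scalings and filters, replicate blocks and omission of each library. The fits were tested on simulated data. Promoters came from RefSeq.

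Named genes were Nfe2l3, Trim5, the 10 largest rises and falls of at least 5 CPM without overlap, the 6 most abundant per direction, and the list members of smallest p (4 where 3 or more were called, otherwise 2), leaving out predicted genes, pseudogenes and receptor segments; genes named outside this rule were chosen after their values were seen, and some genes are not reported here. The comparison and the gene lists were chosen with earlier results of these data known.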

Additional observations from a re-analysis of the deposited data

Results flagged for a closer look

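The carotid minus the femoral knockout change of Jag2, a Notch ligand, was 2.09 ± 0.22 on the log2 scale (edgeR interaction contrast, adjusted p 0.0394). It was selected because the effects in the ligated carotid artery (0.97) and the wire-injured femoral artery (-1.12) differed in a test of the difference itself.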

How the results depend on the processing

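The 197 carotid calls became 26 with the carotid libraries alone, 990 with DESeq2, 444 without a filter on low counts, 131 among protein-coding genes alone and 78 with a replicate block numbered from the titles; omissions gave 60 to 233. The block numbered from the descriptions gave 197, of which 91 were among the original 197, and the title block kept 59 of them. Of the 138 calls with limma-voom 124, of the 211 with RLE size factors 197 and of the 188 with library totals 181 were among them. The 1 call for the carotid minus femoral difference became 171 with DESeq2, 0 with limma-voom, 17 without the filter, 9 with the title block and 3 with the description block; omissions gave 0 to 3. The Nfe2l3 change was -3.0 and called with DESeq2 (adjusted p 0.00312), and -3.10 to -2.86 in omissions without a call. The Trim5 change was -3.21 and not called with the carotid libraries alone (edgeR adjusted p 0.143), and -4.58 to -2.53 in omissions, called in each. The causes were not tested beyond the fewer samples or genes that a setting itself leaves.

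Replicate numbers do not establish pairs: titles and descriptions number the second knockout differently. The correlation of deviations from the group means was -0.017 for knockout and control replicate 1, -0.33 for both replicates 2 and, by the descriptions, 0.30 for knockout replicate 2 with control replicate 3; with 2 knockouts these values mirror each other.

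Of 51 list medians 16 changed sign under an alternative other than an omission, and 26 took both signs among the omissions, lists of the wall included. Signs also turned for named members of lists of other tissues and, with Dcn, of modulated smooth muscle and fibroblasts. They turned too for Cdh1, which is in none of the lists. In omissions Ucp1 ranged from -0.67 to 3.16, Casr from -1.35 to 1.99, Myh3 from -5.29 to 2.60, Cdh1 from -0.23 to 0.39, Dcn from -0.05 to 0.42 and Snap25 from -0.34 to 4.41. The lowest values of Ucp1, Casr, Myh3 and Cdh1 came without carotid knockout replicate 2, and those of Dcn and Snap25 without carotid knockout replicate 1; Cdh1 was -0.09 without carotid control replicate 3. Myh3 was -1.15 with limma-voom, -0.73 with the title block and -0.28 with the description block, and Cdh1 -0.10 with the title block. The median over all genes stayed between -0.025 and 0.042. With 2 knockout libraries, changes of genes under a few CPM rest on few counts.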
